A study of Mus musculus with 8 samples.

Results

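MANF, CRELD1, CRELD2, nucleobindin 1, nucleobindin 2, wolframin and TMBIM6 are proteins of the secretory pathway that are secreted, or retained in its membranes and lumen, and several are known to protect cells during endoplasmic reticulum (ER) stress. Their 7 genes were each represented by 1 probe set whose only annotated symbol was that gene, 7 of 22626 tested probe sets. RNA came from 4 samples of mouse adipocytes infected with adenovirus carrying the spliced form of mouse Xbp1 (sXBP1) and 4 infected with adenovirus carrying green fluorescent protein (GFP) alone, 1 Affymetrix array per sample. All cells were F442A preadipocytes, of Swiss background, differentiated into fat cells, although another label names the line 3T3L1. Virus was added at day 6 to 8 of differentiation and cells were collected 4 to 6 days later, ranges that the labels give for all samples alike. Both groups were therefore infected, and differ in the gene the virus carried. No label says that replicates were grown separately, so each p-value reflects only the scatter among these arrays, part of which may be technical.

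The ER folds proteins that enter the secretory pathway. When unfolded proteins accumulate, the sensor IRE1 splices Xbp1 messenger RNA, and the spliced form encodes a transcription factor that binds ER stress elements in the promoters of chaperone and secretory genes. Some products of this response are soluble ER proteins that leave the cell under stress, such as MANF and CRELD2. Wolframin and TMBIM6 sit in the ER membrane and influence calcium stores or the sensors themselves.

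Of the 7 genes, 5 were higher in sXBP1 than in GFP cells, 1 was lower and 1 was not detected. Nucb2, Manf, Wfs1, Creld2 and Nucb1 were higher by 3.20, 2.56, 2.03, 1.88 and 1.62 times, and each passed the test (limma, Benjamini-Hochberg adjusted p under 0.05 over all tested probe sets). Tmbim6 was lower, at 0.883 times the GFP level, and this call depended on the processing. Creld1 was called absent on all 8 arrays in the authors' deposited table. In the same comparison 24.5% of tested probe sets were called, 11.5% as higher and 13% as lower. These 7 genes were chosen with results of these arrays known, so their counts are a description.

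Promoter sequence was matched for 5 of the 7 genes, from RefSeq on GRCm38.p6. Manf and Tmbim6 had no entry. Each window ran from 250 bases before to 50 bases after the annotated start and was searched on both strands for 4 motifs. The ER stress element is CCAAT and CCACG with 9 bases between them. The ER stress element II is ATTGG and CCACG with 1 base between them. The others are the UPR element TGACGTGG and the CCACG core. The core lies within both ER stress elements and, read from the other strand, within the UPR element. The 250 bases before the start are shown for Creld2, Nucb1 and Nucb2, because these hold matches and all 3 genes rose. Capitals mark the fixed letters of each match, and the spacers are left in lower case. Read from the other strand, CCACG appears as CGTGG, and CCAAT and ATTGG appear as each other.

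Creld2, chr15:88819396-88819645, + strand: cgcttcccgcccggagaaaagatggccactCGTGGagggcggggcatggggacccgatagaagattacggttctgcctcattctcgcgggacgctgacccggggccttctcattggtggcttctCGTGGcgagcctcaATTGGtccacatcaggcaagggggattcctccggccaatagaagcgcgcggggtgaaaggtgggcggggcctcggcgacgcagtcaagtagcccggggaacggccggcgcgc
Nucb1, chr7:45510409-45510658, - strand: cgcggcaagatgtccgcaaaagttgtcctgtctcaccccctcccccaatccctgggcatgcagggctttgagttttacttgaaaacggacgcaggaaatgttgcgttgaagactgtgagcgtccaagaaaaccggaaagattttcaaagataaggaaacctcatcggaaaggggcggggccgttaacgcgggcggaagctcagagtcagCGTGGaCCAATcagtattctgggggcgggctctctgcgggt
Nucb2, chr7:116504119-116504368, + strand: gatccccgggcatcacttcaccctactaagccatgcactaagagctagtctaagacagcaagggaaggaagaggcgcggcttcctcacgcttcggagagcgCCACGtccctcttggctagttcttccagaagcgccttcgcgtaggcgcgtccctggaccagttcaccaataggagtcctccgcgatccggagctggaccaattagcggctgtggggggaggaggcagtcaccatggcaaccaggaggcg

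Creld2 held a complete ER stress element 126 to 108 bases before its start, on the opposite strand. This motif was found in 39 of 32851 promoter windows of the table, or 0.119%. A separate CCACG core lay 220 to 216 bases before the Creld2 start, on the opposite strand as well. Nucb1 held an ER stress element II 41 to 31 bases before its start, also on the opposite strand, a motif found in 12 windows, or 0.0365%. Nucb2 held only the CCACG core, 149 to 145 bases before the start and again within the 50 bases after it, which 32.8% of all windows and 42.8% of the windows of genes measured on these arrays share. Wfs1 and Creld1 held no match in this window. The UPR element, present in 0.676% of windows, was found in none of the 5. A match is a run of letters and does not show binding.

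**Figure D1:**
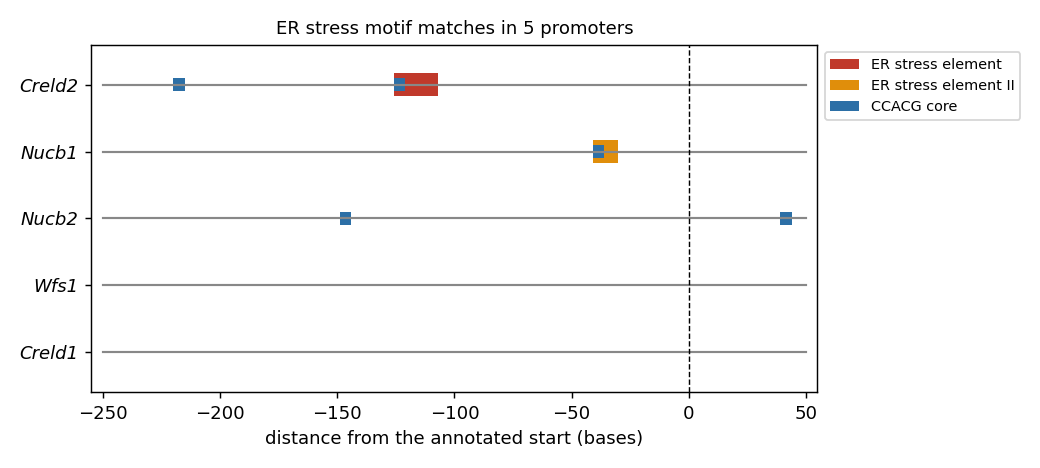
Positions of motif matches in the 5 promoters with a RefSeq entry, as distance in bases from the annotated start (dashed line). Creld2 carries the ER stress element at 126 to 108 bases and Nucb1 the ER stress element II at 41 to 31 bases before the start, while the Wfs1 and Creld1 lines are empty.

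Windows of genes that were higher in sXBP1 cells held the ER stress element in 8 of 1635 cases, or 0.489%, and the ER stress element II in 5, or 0.306%. In windows of genes that were lower, the same motifs were found in 2 of 1931 cases (0.104%) and in 0. Among the 12566 windows of all measured genes the shares were 0.143% and 0.0637%. The UPR element was found in 2.08% of windows of higher genes, 0.414% of those of lower genes and 0.859% of those of all measured genes, and the CCACG core in 51.1%, 46.2% and 42.8%. Creld2 and Nucb1 are themselves among the windows of higher genes, and no test was made of these shares. So is Alg12, the neighbour of Creld2 described next. Its window holds the same ER stress element as that of Creld2, so this site is counted under both genes.

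The ER stress element of Creld2 lies between 2 genes. Alg12, which encodes a mannosyltransferase that builds the glycan precursor on the ER membrane, starts on the other strand 328 bases away from the Creld2 start, so the same letters lie 220 to 202 bases before the Alg12 start. Alg12 was examined because of this position. Its signal was 382.5, 340.2, 364 and 367.2 on sXBP1 arrays, against 264.5, 286.5, 234.3 and 246.1 on GFP arrays, with no overlap. Alg12 rose by 0.59 ± 0.08 on the log2 scale (standard error; limma adjusted p = 5.4e-04), and all 3 of its probe sets rose.

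Manf encodes a small soluble ER protein that binds BiP and is released when ER calcium falls, and it is known to protect neurons and pancreatic beta cells. Its deposited signal, in linear MAS5 units, was 8639.7, 8504.1, 9073.4 and 10248 on sXBP1 arrays 1 to 4, against 3680.2, 3477.8, 3703.2 and 3645.8 on GFP arrays 1 to 4. Every sXBP1 array lay at least 1.14 above the highest GFP array on the normalized log2(signal + 16) scale. The log2 change was 1.36 ± 0.06 (standard error), a fold of 2.56 with 95% limits of 2.32 and 2.83 (limma adjusted p = 9.6e-07). Among all tested probe sets Manf ranked 19 by p-value and 114 by the size of the rise.

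Creld2 encodes a soluble ER protein with epidermal growth factor-like repeats that is secreted under ER stress. Its signal was 2487.1, 2467.7, 2759 and 2929.5 on sXBP1 arrays and 1523.5, 1390.4, 1347.4 and 1497.9 on GFP arrays. The groups did not overlap, and the lowest sXBP1 array stood 0.64 above the highest GFP array on the log2 scale. The log2 change was 0.91 ± 0.08, a fold of 1.88 with 95% limits of 1.68 and 2.11 (limma adjusted p = 1.8e-05).

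Creld1, the membrane-anchored relative of Creld2, had a signal of 28.9, 41.1, 19.4 and 14.7 on sXBP1 arrays and 35.8, 18, 44.5 and 7.1 on GFP arrays. The groups overlapped fully, and the authors' deposited calls were absent on every array, so the probe set gives no more than an upper bound on the level. The log2 change was 0.07 ± 0.31 (limma adjusted p = 0.905), with a 95% interval of -0.62 to 0.77 that reaches nearly as far as the Creld2 change. A difference between the changes of Creld2 and Creld1 is therefore not read here, since the probe set of Creld1 was not above background on any array. A comparison of Manf with its relative Cdnf was not analysed here, since Cdnf had no probe set of its own.

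**Figure D2:**
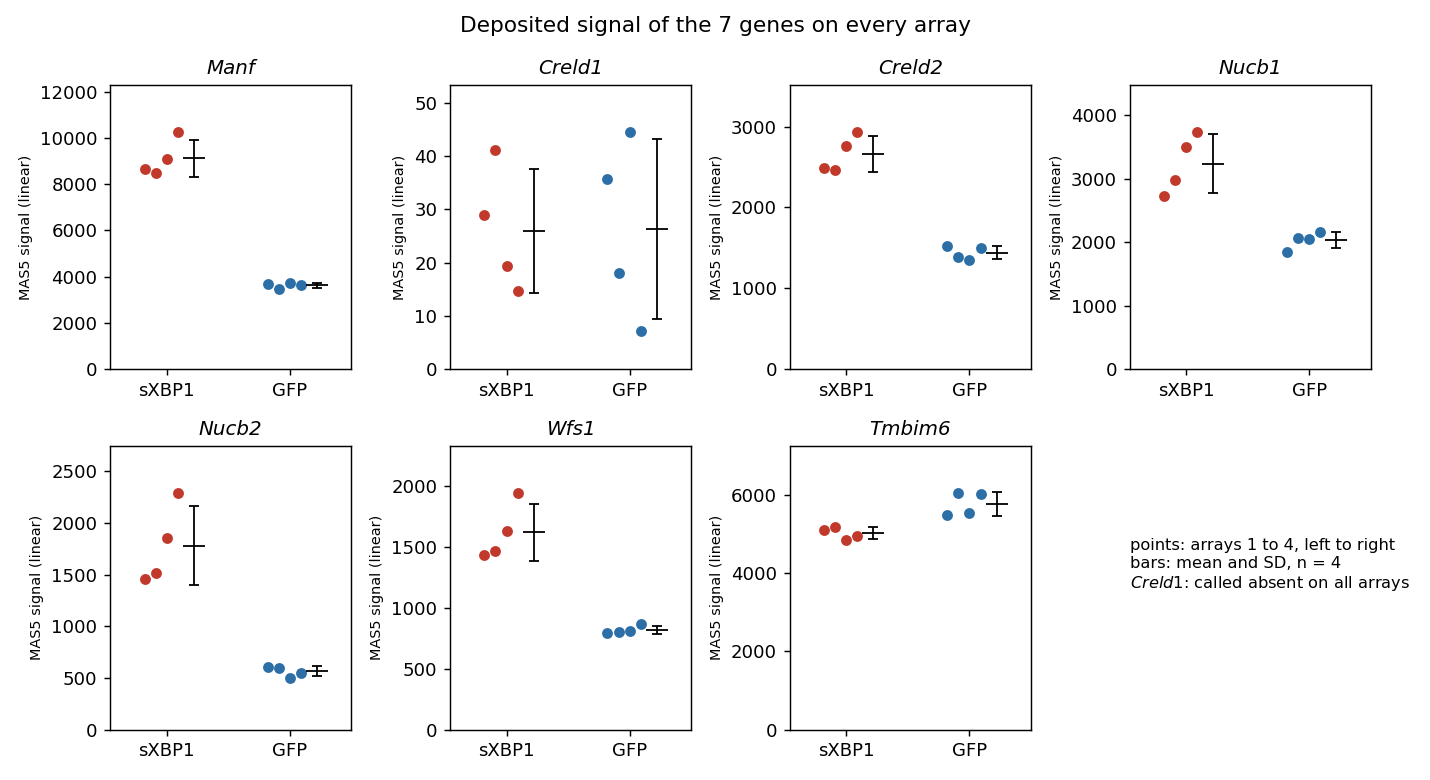
Deposited MAS5 signal (linear, axes from 0) of each of the 7 genes on the 4 sXBP1 arrays (red, left) and 4 GFP arrays (blue, right), with the mean and SD beside the points. The sXBP1 points of Manf, Creld2, Nucb1, Nucb2 and Wfs1 lie above all GFP points, those of Tmbim6 lie below them, and those of Creld1 reach no more than 41.1 on sXBP1 and 44.5 on GFP arrays.

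The nucleobindins are EF-hand calcium-binding proteins of the Golgi and secretory pathway, and nucleobindin 2 is also the precursor of nesfatin-1, a secreted peptide known for lowering food intake. Nucb2 had a signal of 1457.2, 1513.9, 1850.7 and 2288.5 on sXBP1 arrays, against 609.3, 595.3, 504.2 and 543.4 on GFP arrays. All sXBP1 values were above all GFP values, but they were also spread widely, with a coefficient of variation of 21.5% in sXBP1 and 8.60% in GFP samples. Nucb2 rose by 1.68 ± 0.11 on the log2 scale, a fold of 3.20 with 95% limits of 2.68 and 3.81 (limma adjusted p = 5.5e-06). It ranked 63 of all tested probe sets by the size of the rise.

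Nucb1 had a signal of 2727.7, 2981, 3505.4 and 3732.4 on sXBP1 arrays and 1849, 2067.3, 2050.1 and 2158.1 on GFP arrays. The groups did not overlap. Its log2 change of 0.70 ± 0.07 was the smallest of the 5 rises, a fold of 1.62 with 95% limits of 1.45 and 1.81 (limma adjusted p = 8.4e-05). Measured within each array, the change of Nucb2 exceeded that of Nucb1 by 0.98 ± 0.11 on the log2 scale. That difference lay at 0.88 to 1.15 on the sXBP1 arrays and at -0.14 to 0.24 on the GFP arrays. The two-sided exact permutation p was 0.0286, the smallest that 4 against 4 arrays allow. It was 0.0571 after adjustment over 2 paralogue comparisons (the other was Creld2 with Creld1) and did not pass the threshold. At this smallest p it could pass only if the other comparison passed as well, and Creld1 was not detected. The adjusted value therefore does not measure the Nucb2 and Nucb1 difference alone.

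Wfs1 encodes wolframin, an ER membrane glycoprotein that affects ER calcium and the turnover of the sensor ATF6, and its loss causes Wolfram syndrome, with diabetes and optic atrophy, in humans. Signals of 1433.3, 1468.9, 1630 and 1940.9 were measured on sXBP1 arrays and of 792.6, 803.5, 807.5 and 865.5 on GFP arrays. The lowest sXBP1 array stood 0.85 above the highest GFP array on the log2 scale. Wfs1 rose by 1.02 ± 0.07, a fold of 2.03 with 95% limits of 1.82 and 2.26 (limma adjusted p = 6.1e-06).

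Tmbim6 encodes Bax inhibitor 1, an ER membrane protein that lets calcium leak from the ER, restrains IRE1 and protects from cell death. Its signal was 5090.9, 5186.7, 4844.9 and 4934.5 on sXBP1 arrays and 5481.7, 6044.1, 5525.2 and 6016.9 on GFP arrays. The groups did not overlap, although on the normalized log2 scale the gap between them was 0.048, against 0.48 or more for the 5 genes that rose. Tmbim6 fell by 0.18 on the log2 scale with a standard error of 0.05, to 0.883 times the GFP level, with 95% limits of 0.813 and 0.958 (limma adjusted p = 0.0315). With arrays centred on their medians the change was -0.056 and did not pass (adjusted p = 0.520), and 8 of 16 alternative settings in all lost the call while keeping the direction. Groups that do not overlap, as for 6 of these 7 probe sets, were found for 27.4% of all tested probe sets.

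**Figure D3:**
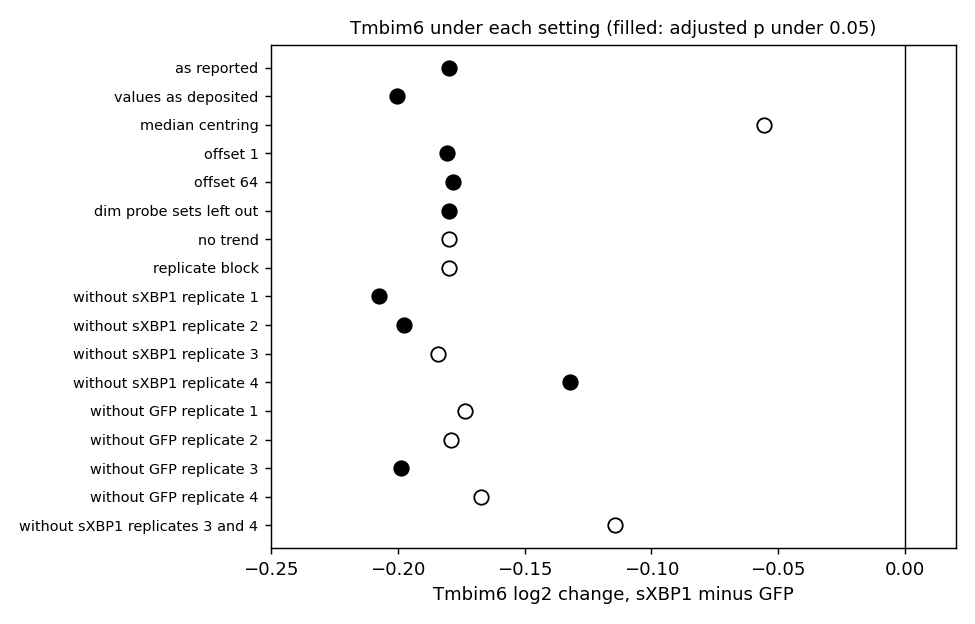
Log2 change of Tmbim6, sXBP1 minus GFP, under the reported setting and each alternative, with filled points where the adjusted p was under 0.05. All points lie below 0, from -0.21 to -0.056, and the point nearest 0 is median centring.

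Ordered by size, the changes were those of Nucb2, Manf, Wfs1, Creld2 and Nucb1. The 95% intervals of neighbours in this order overlapped for Nucb2 with Manf, Wfs1 with Creld2 and Creld2 with Nucb1. The intervals of Manf and Wfs1 did not overlap, with a lower limit of 1.22 for Manf and an upper limit of 1.18 for Wfs1. All 5 lay above the 95th percentile of the changes of all tested probe sets, which was 0.60. Over all tested probe sets the median was -0.02.

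**Figure D4:**
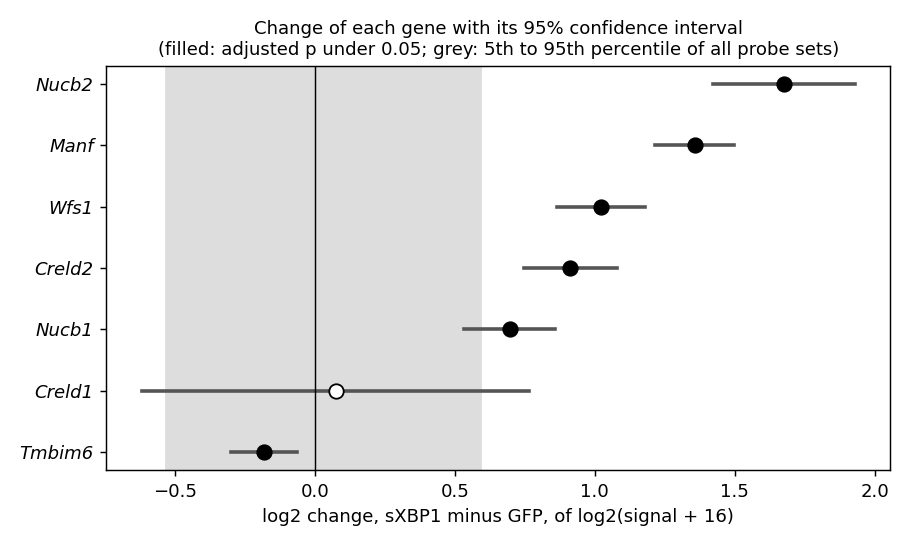
Log2 change, sXBP1 minus GFP, of the 7 genes with 95% confidence intervals from limma, filled where the adjusted p was under 0.05, over a grey band from the 5th to the 95th percentile of all tested probe sets (-0.53 to 0.60). The points of the 5 rises lie right of the band, although the Nucb1 interval starts inside it, at 0.53. Tmbim6 lies inside the band with an interval below 0, and the wide interval of Creld1 spans 0.

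Of the sXBP1 arrays, numbers 3 and 4 showed the larger rises of these 5 genes. Relative to the GFP mean, Nucb2 stood at 1.46 and 1.49 on arrays 1 and 2 and at 1.83 and 1.93 on arrays 3 and 4. Nucb1 stood at 0.52 and 0.61 against 0.88 and 0.78 on the same arrays. Averaged over the 5 genes the level was 1.02, 1.02, 1.25 and 1.25 above the GFP mean. Without arrays 3 and 4 together, an alternative chosen after seeing the data, the same 5 genes were still called, with changes of 1.46 for Nucb2, 1.30 for Manf, 0.90 for Wfs1, 0.85 for Creld2 and 0.56 for Nucb1. Tmbim6 was not called without them (-0.11, adjusted p = 0.0891).

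Cell type markers moved on the same arrays. Of 6 macrophage markers, 4 rose (Cd68, Cd14, Csf1r and Lyz2), 0 fell and 2 were not called. Their summed signal was 2081.9 to 4176.4 in sXBP1 and 733.1 to 854.1 in GFP samples, highest on sXBP1 arrays 3 and 4. The defining leukocyte marker Ptprc was called absent on all arrays, and Adgre1, another macrophage marker, was dim and did not pass (log2 change -0.12, adjusted p = 0.667). Of 6 measured adipocyte markers, 0 rose and 4 fell, with a summed signal of 48928 to 58028.1 in sXBP1 and 58721.4 to 63724.1 in GFP samples, and Adipoq and Fabp4 were present on every array. Of 6 fibroblast markers, 0 rose and 2 fell (Dlk1 and Thy1), with summed signals of 52938.6 to 56794.5 in sXBP1 and 54767.8 to 60720.3 in GFP samples. All 4 endothelial markers were near background, at summed signals of 45.5 to 64.9 in sXBP1 and 36.4 to 76.4 in GFP samples, with 0 called. These counts use the brightest probe set of each gene, by which 12.9% of all genes were called higher and 14.4% lower. For Csf1r, Fabp4, Lpl, Pdgfra, Col1a1 and Col3a1 another probe set of the gene had a different outcome. The Gapdh 3' to 5' ratio, a measure of RNA integrity, was 0.775 to 0.802 in sXBP1 and 0.810 to 0.820 in GFP samples. The part of these differences in the results was not tested. All samples are labelled as a cultured preadipocyte line, so the macrophage and endothelial lists are not read as numbers of those cells. For the adipocyte and fibroblast lists, bulk RNA cannot tell fewer cells of a type apart from less RNA per cell. Median signal per array was 117.3 to 139.65 in sXBP1 and 135 to 153.9 in GFP samples, and the number of arrays limits the precision.

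**Figure D5:**
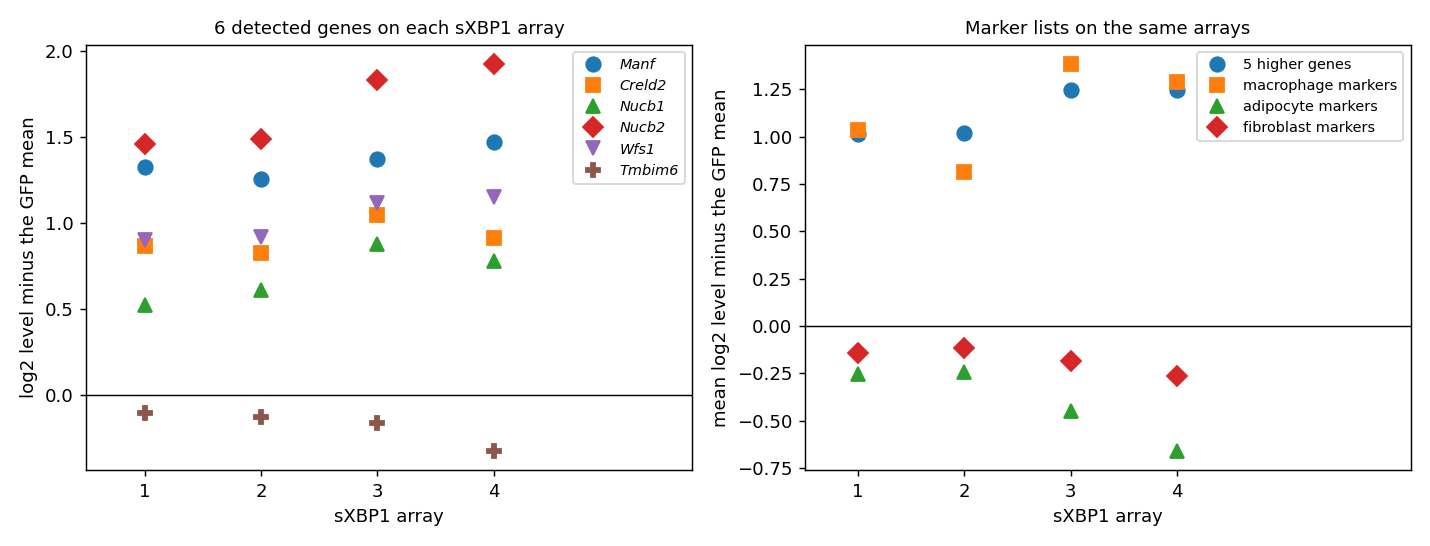
Left, level of the 6 detected genes on each sXBP1 array as log2 difference from the mean of the 4 GFP arrays. Right, the same difference averaged over the 5 higher genes and over marker lists: the 5 genes stood at 1.02, 1.02, 1.25 and 1.25, macrophage markers at 1.03, 0.81, 1.38 and 1.29 and adipocyte markers at -0.25, -0.25, -0.45 and -0.66.

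The genes with profiles most like each gene over the 8 arrays were sought among 6753 genes brighter than the median, by the root mean square difference of centred log2 values. Nearest to Manf were Selenos and Sec11c, of ER-associated degradation and the signal peptidase, and Il13ra1, at differences of 0.075, 0.088 and 0.092. Creld2 was nearest to Clptm1l and to the disulfide isomerases Pdia5 and Pdia4, at 0.045, 0.048 and 0.058. Nearest to Wfs1 were Gpr180, the ER cochaperone gene Dnajb11 and Srp9 of the signal recognition particle, at 0.031, 0.042 and 0.053. For Nucb1 they were Galnt7, a glycosyltransferase of the Golgi, Slc35f5 and Lgalsl, at 0.038, 0.041 and 0.049.

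Nucb2 was nearest to Sgk1, Ereg and Cd68, at 0.085, 0.094 and 0.119, which encode a serum-regulated kinase, the growth factor epiregulin and a lysosomal glycoprotein of macrophages. Tmbim6 was nearest to Ttyh2, Atxn7l3b and Ctbp1, at 0.026, 0.028 and 0.028, of which only Ctbp1 was called (log2 change -0.20, adjusted p = 0.0151). Within the set, the closest profiles were those of Creld2 and Wfs1, at 0.096, and those of Manf and Nucb2 stood at 0.203. The difference between groups contributes most of each profile, so likeness here is mainly a like change.

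Relatives of Tmbim6 moved in both directions. Tmbim4, another member of the family, had a signal of 2488.3, 2440.3, 2698.3 and 3092.8 on sXBP1 arrays, against 1272, 1563.4, 1411.7 and 1518.9 on GFP arrays. It rose by 0.92 ± 0.05 on the log2 scale (limma adjusted p = 2.6e-06). Grina, also called Tmbim3, fell by 0.38 on the log2 scale with 2 of 2 probe sets (adjusted p = 2.2e-04), with signals of 2966.8 to 3387.7 in sXBP1 and 4027 to 4401.7 in GFP samples. Tmbim1 fell by 0.28 on that scale (adjusted p = 0.0046), and the mitochondrial member Ghitm did not pass (-0.02 ± 0.03, adjusted p = 0.720). Thus of 4 measured relatives 1 rose and 2 fell, with a median of -0.15 beside -0.01 for all 12393 genes, of which 12.9% were called higher and 14.4% lower. Cdnf, Faim2 and Cisd2 were not analysed here.

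KDEL receptors return soluble ER proteins from the Golgi, and MANF and CRELD2 carry KDEL-like ends that these receptors bind. Of the 3 receptor genes 2 rose and 0 fell, with a median of 0.22. Over all genes 12.9% were called higher and 14.4% lower. Kdelr3 had a signal of 2412.8, 2405.3, 2955.9 and 3177.1 on sXBP1 arrays, against 1786.4, 1927.6, 1913.4 and 2020.1 on GFP arrays, and rose by 0.54 ± 0.08 (limma adjusted p = 4.9e-04). Kdelr2 rose by 0.22 ± 0.05, and Kdelr1 did not pass (0.12 ± 0.05, adjusted p = 0.134). Each receptor therefore changed by less than Manf or Creld2 on the log2 scale, a comparison of sizes that was not tested.

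The CREC proteins are EF-hand calcium-binding proteins of the ER and Golgi, like the nucleobindins in this respect. Of their 5 genes 3 rose and 1 fell, with a median of 0.18, beside 12.9% called higher and 14.4% lower over all genes. Rcn3 rose by 0.32 ± 0.05 (limma adjusted p = 9.9e-04), Sdf4 by 0.23 ± 0.05 on 1 of 2 probe sets and Calu by 0.18 ± 0.04. Rcn2 fell by 0.20 on the log2 scale (adjusted p = 0.0353), but only 6 of 17 alternative settings kept 1 lower CREC gene, and median centring did not. Rcn1 did not pass (0.11, adjusted p = 0.337). Nucb1 and Nucb2 thus changed by 0.70 and 1.68, beside 0.32 for the CREC gene with the largest rise.

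Among 7 measured genes for ER calcium pumps and channels, 1 rose, 1 fell and 5 did not pass, with a median of -0.09. These counts are near the shares of 12.9% higher and 14.4% lower over all genes, and so are no result about this list. Atp2a2, which encodes the calcium pump SERCA2 that fills the ER, rose by 0.46 ± 0.06 on 4 of 4 probe sets (limma adjusted p = 3.1e-04), with signals of 6094.1 to 7203 in sXBP1 and 4715.3 to 4976.8 in GFP samples. Atp2a3, a related pump, was dim and fell by 0.47 on the log2 scale on 1 of 2 probe sets (adjusted p = 0.0151), and that call was lost without sXBP1 arrays 3 and 4. The inositol trisphosphate receptor genes Itpr2 and Itpr3 did not pass (-0.09 and 0.18, adjusted p = 0.699 and 0.453).

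Of 14 ER chaperone and cochaperone genes 11 rose and 0 fell, with a median of 0.58. The shares over all genes were 12.9% higher and 14.4% lower. The smallest p-values were those of Dnajc3 and Sdf2l1, whose products assist BiP, at log2 changes of 1.53 ± 0.06 and 2.39 ± 0.10. Hsp90b1, Canx and Sil1 did not pass (0.29, 0.07 and 0.08, limma adjusted p = 0.0520, 0.476 and 0.414). For Hsp90b1, and for Pdia4 and Pdia6 among the genes that rose, the outcome held on 1 of 2 probe sets. The Manf and Nucb2 changes of 1.36 and 1.68 stand beside 0.27 ± 0.04 for Hspa5, the gene of the MANF partner BiP, whose signals of 17501.3 to 19125.2 in sXBP1 and 14094.9 to 14870.1 in GFP samples are near the top of the range.

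Of 6 sensors and factors of the unfolded protein response 3 rose and 0 fell, with a median of 0.19. The shares over all genes were 12.9% higher and 14.4% lower. Atf6, whose protein wolframin is known to regulate, rose by 0.90 ± 0.05 (limma adjusted p = 2.6e-06), and Eif2ak3 and Atf4 rose by 0.79 ± 0.05 and 0.31 ± 0.04, each on 1 of 3 probe sets. Ern1, the gene of the TMBIM6 partner IRE1, had signals of 18.2 to 27.5 in sXBP1 and 9.3 to 36.8 in GFP samples and did not pass (0.02, adjusted p = 0.973). Xbp1 itself did not pass on any of its 4 probe sets (brightest: log2 change 0.07 ± 0.04, adjusted p = 0.271). Where its probe sets lie in relation to the sequence carried by the virus was not examined, so Xbp1 gives no check of the labels. Ddit3 did not pass (0.06, adjusted p = 0.420).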

How the data were processed

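The authors deposited 1 linear signal intensity per probe set and array, computed with MAS5 per the submitters' processing notes; its version and scaling were not given in the sources used here. Absent or present calls were taken from the authors' deposited table, which also holds a score and a signed fold that were not used. Of 22690 probe sets, 64 controls were left out. Signals were transformed as log2(signal + 16), quantile normalized and compared with limma 3.58.1 in R 4.3.3 (eBayes with a trend, two-sided, Benjamini-Hochberg over 22626 probe sets, threshold 0.05). The log2 scale with an added 16 understates changes of dim genes. Changes are sXBP1 minus GFP. Symbols came from the platform annotation (20380 probe sets with 1 symbol, 691 with several, 1555 with none). Other genes are given by their brightest probe set. Per gene list, the text names the 2 smallest p-values and the genes whose outcome differs from the majority. It also names the 3 nearest profiles per called gene. Members and lists were chosen with earlier results of these data known. Protein sequences were not used here. The fit was tested on simulated data. Figures were drawn with matplotlib 3.10.9.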

Additional observations from a re-analysis of the deposited data

Results flagged for a closer look

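Wfs1 on GFP array 2 stood apart from the other GFP arrays on the normalized scale, at 9.54 against 9.69 to 9.71, a gap of 0.882 of the group's range, above Dixon's 95% critical value for 4 samples. Its deposited signal there, 803.5, lay within the range of the other 3. Chance flags about 1 in 20 such groups, and 14 were examined. Without that array Wfs1 still passed.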

How the results depend on the processing

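The 5 rises kept their direction and passed under all 16 alternatives, with log2 changes of 1.46 to 1.76 for Nucb2, 1.30 to 1.47 for Manf, 0.90 to 1.11 for Wfs1, 0.85 to 1.02 for Creld2 and 0.56 to 0.80 for Nucb1, and the count of higher members was 5 throughout. Tmbim6 kept its direction but did not pass after median centring (-0.056, adjusted p = 0.520), without a trend (-0.18, adjusted p = 0.109), with a replicate block (-0.18, adjusted p = 0.0556) or without sXBP1 replicates 3 and 4 (-0.11, adjusted p = 0.0891), so the count of lower members was 0 there. Leaving out 1 array at a time, Tmbim6 ranged from -0.21 to -0.13 and lost the call without sXBP1 replicate 3 and without GFP replicates 1, 2 and 4, and the count of lower members was 0 to 1. Creld1, called absent throughout, ranged from -0.17 to 0.28 when 1 array was omitted and up to 0.40 without sXBP1 replicates 3 and 4, and changed sign without sXBP1 replicate 2, GFP replicate 2 and GFP replicate 4. The change of Nucb2 exceeded that of Nucb1 by 0.90 to 1.07. It passed only with an offset of 64 (0.91, exact permutation adjusted p = 0.0286). There the Creld2 and Creld1 comparison, adjusted together with it, also reached the smallest p. So this pass does not show a clearer Nucb2 and Nucb1 difference. The same difference for Creld2 and Creld1 was 0.84, fell to 0.44 without sXBP1 replicates 3 and 4 (exact permutation adjusted p = 0.400), was 0.73 with an offset of 1 (adjusted p = 0.314) and 0.87 with an offset of 64 (adjusted p = 0.0286), and was 0.62 to 1.09 when 1 array was omitted. It is not read as a result, since Creld1 was not above background and a larger offset flattens its values. Exact tests with 3 arrays in a group cannot pass.

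Of all tested probe sets, 2601 were higher and 2942 lower, against 1600 and 3195 with values as deposited and 3379 and 2191 after median centring, so 46.9%, 33.4% and 60.7% of calls were higher. The median change of all probe sets was -0.02, -0.07 and 0.07 in that order. With values as deposited the median of the Tmbim6 relatives was -0.21 and that of calcium genes -0.22, 1 KDEL receptor and 1 CREC gene rose and 0 CREC genes fell. After median centring the medians were -0.061 for Tmbim6 relatives, 0.68 for chaperones, 0.32 for KDEL receptors, 0.31 for CREC genes and 0.32 for sensors, 0 CREC genes fell and 5 sensors rose. With the mean of all probe sets per gene they were 0.44 for chaperones, 0.54 for KDEL receptors, 0.11 for CREC genes and 0.077 for sensors, and 0 calcium genes fell. Without dim probe sets the sensor median was 0.31. The fall of Rcn2 was also lost, leaving 0 lower CREC genes, without a trend, with the replicate block and without sXBP1 replicates 3 and 4. When 1 array was omitted, a lower CREC gene remained only without sXBP1 replicate 1 or GFP replicate 1. In all, 6 of 17 alternatives kept 1 lower CREC gene. Without sXBP1 replicates 3 and 4, 0 calcium genes fell and their median was -0.024; omitting 1 array gave -0.12 to -0.0039 for that median and 0.19 to 0.23 for that of sensors. The cause of these differences was not tested.

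Samples of the 2 groups share only a replicate number: same-numbered arrays correlated in their deviations at 0.12, 0.04, -0.06 and 0.09. Among the sXBP1 arrays, numbers 1, 2 and 4 correlated best with the GFP array of their own number, and number 3 did not. With the number as a replicate block, 2427 probe sets were higher and 2656 lower, and sign flips over the 4 pairs gave adjusted p = 0.125 for Nucb2 minus Nucb1, the smallest they allow.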
